A study of Mus musculus with 2 samples.

Results

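Fibro-adipogenic progenitors (FAPs) are muscle-resident mesenchymal cells able to form adipocytes or matrix-producing fibroblasts, and they are recognised by surface proteins and secreted products that they share with fibroblasts of other tissues. Here 10 such marker genes were followed, chosen by gene name from the deposited tables of 44291 genes. They are the broad surface markers Ly6a, Cd34 and Thy1, the secreted or matrix-associated genes Dpt and Gsn, and Pi16, Dpp4, Cd55, Ly6c1 and Sema3c, which mark a progenitor-like fibroblast subset. RNA-seq was available for 2 libraries of wild-type primary mouse FAPs, 1 exposed to platelet-rich plasma (PRP) and 1 to vehicle (control). Both cultures were then kept in adipogenic induction medium with 20% FBS, insulin at 10 μg/ml, dexamethasone at 0.25 μM and IBMX at 0.5 mM. The labels call the treatment PRP, although the study's text describes cells that received exosomes prepared from the PRP of young human donors. The study's methods name C57BL/6 mice bought at 6 to 8 weeks of age, without tying them to these cultures. The labels give neither the sex and number of the animals nor the time of harvest. The study's methods describe sorting of FAPs from hind limb muscle, and its antibodies include those against PDGFRα, Sca-1 (the product of Ly6a), CD31 and CD45, although no gate is spelled out. Ly6a may thus have been used to choose the cells before either treatment.

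In muscle and other organs, fibroblasts that carry PI16 and DPP4 are regarded as an uncommitted reserve close to vessels and in fascia, from which more specialised fibroblasts and adipocyte precursors arise. Dermatopontin (Dpt) marks nearly all fibroblasts of that reserve and their closest relatives, whereas Sca-1 and CD34 are the classical handles for sorting FAPs. Several of these markers are not specific, since endothelial and blood cells also make Sca-1, Ly-6C, CD34 or Thy-1.

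The study examined the microRNAs let-7f-5p and miR-16-5p as cargo of PRP exosomes, and their letters were looked for in the marker genes. The mature mouse sequences (RefSeq, GRCm38.p6) are shown with the seed, bases 2 to 8, in capitals, because the seed sets the letters of the search.
let-7f-5p: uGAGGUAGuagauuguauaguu
miR-16-5p: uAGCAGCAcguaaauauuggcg
The matching letters on a transcript are CTACCTC for let-7f-5p and TGCTGCT for miR-16-5p. They were searched on the transcript strand of the longest 3′ untranslated region (3′UTR) that GENCODE M21 gives for each gene. None of the 10 marker genes had a let-7f-5p match, and 2 had 1 miR-16-5p match each. Among 10287 tested genes with a 3′UTR, 9.85% held a let-7f-5p match and 24.6% a miR-16-5p match, without regard to the length of the region. Both matches are given with their neighbouring bases and the match in capitals.
Ly6a (chr15:74995022-74995050, minus strand): ttgttgtggatTGCTGCTcatgaccctgg
Pi16 (chr17:29330408-29330436, plus strand): accccgcccacTGCTGCTcctaatgctgg
The 3′UTR searched was 385 bases long for Ly6a and 2106 bases for Pi16, against 226 bases for Gsn, the shortest, and 2545 bases for Dpp4, the longest. A match is a run of letters only, and binding was not measured here. The 2 tested genes with the largest log2 fold changes, Sema3c and Dpt, had none in 2512 and 1030 bases.

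To see how PRP treatment related to the marker profile, the FPKM values (fragments or reads scaled to exon length and to the library's total) of both libraries were compared. Paired values are given below with the PRP library first and the control library after it. The PRP library held 40120843 assigned reads and the control library 34139741, as recovered from the deposited values. With a single library per group no difference can be tested against replicate error, so every difference here is between 2 libraries. Each ratio is given with an exact 95% binomial (Clopper-Pearson) interval on read pairs, which covers counting error only and ignores PCR duplicates. Fold changes are on the log2(FPKM + 1) scale, which understates the change of low genes. In bulk RNA, fewer cells of a type and less RNA of a gene per cell cannot be told apart.

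The marker genes spanned a wide range of levels. Thy1 and Gsn were the most abundant in both libraries, and Pi16 was close to undetected. A mean FPKM of at least 1 was reached by 8 of the 10 genes, and these 8 are called tested below. Dpp4 and Pi16 did not reach it. In the control library the order from high to low was Thy1, Gsn, Ly6a, Dpt, Ly6c1, Cd34, Sema3c, Cd55, Dpp4 and Pi16. Of these neighbours, Sema3c and Cd55 had counting intervals of their FPKM that overlapped. In the PRP library the order was the same except that Sema3c stood between Dpt and Ly6c1, and the intervals of Sema3c and Ly6c1 overlapped. The 10 genes together gave 344.7 against 492.1 FPKM, a ratio of 0.700.

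**Figure D1:**
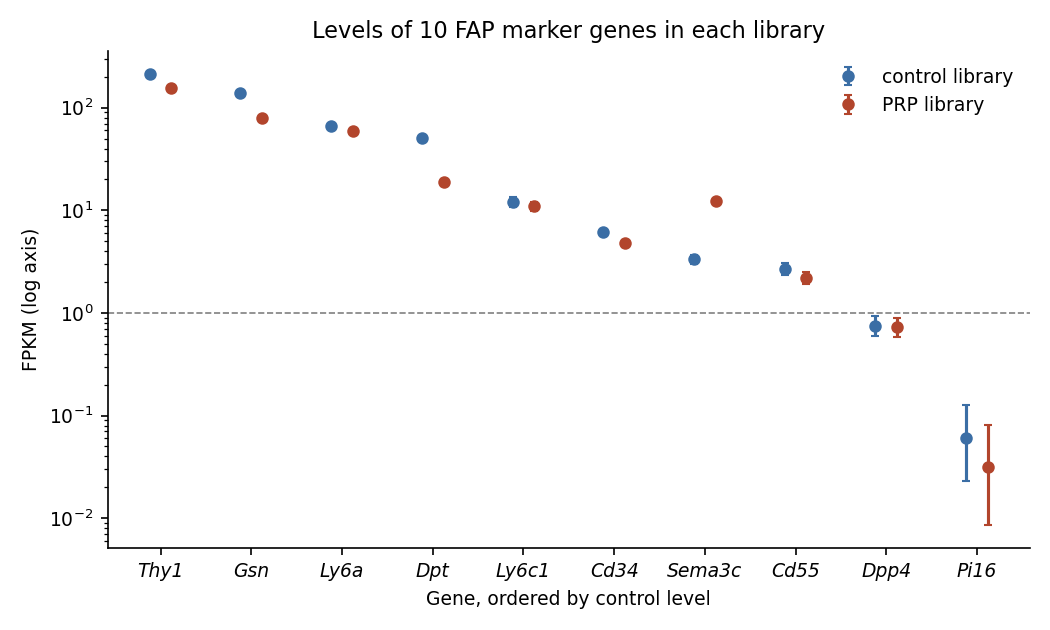
FPKM of the 10 marker genes on a log axis, with the control library in blue and the PRP library in red. Bars are exact 95% Poisson intervals of the counted read pairs, many of them smaller than the point, and the dashed line marks 1 FPKM. Sema3c, with 12.2 against 3.32 FPKM, is the one gene whose red point lies clearly above its blue point.

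Among the 8 tested genes, 7 were lower in the PRP library and 1, Sema3c, was higher. Of all 13401 genes that reached a mean of 1 FPKM, 49.1% were lower and 50.9% were higher. The median log2 fold change was -0.26 over the 8 genes and 0.01 over all tested genes. At least 2-fold lower was 1 of the 8, Dpt, beside 0.828% of all tested genes, and at least 2-fold higher was Sema3c, beside 2.00%. At 1.5-fold, 2 were lower (Dpt and Gsn, beside 4.57% of all genes) and 1 was higher (beside 6.15%). The counting interval lay wholly below 1 for 6 of the 8 and wholly above 1 for 1 of them. For the 12367 tested genes with whole reads in both libraries these shares were 26.1% and 26.2%, so an interval that leaves out 1 was common at this depth.

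**Figure D2:**
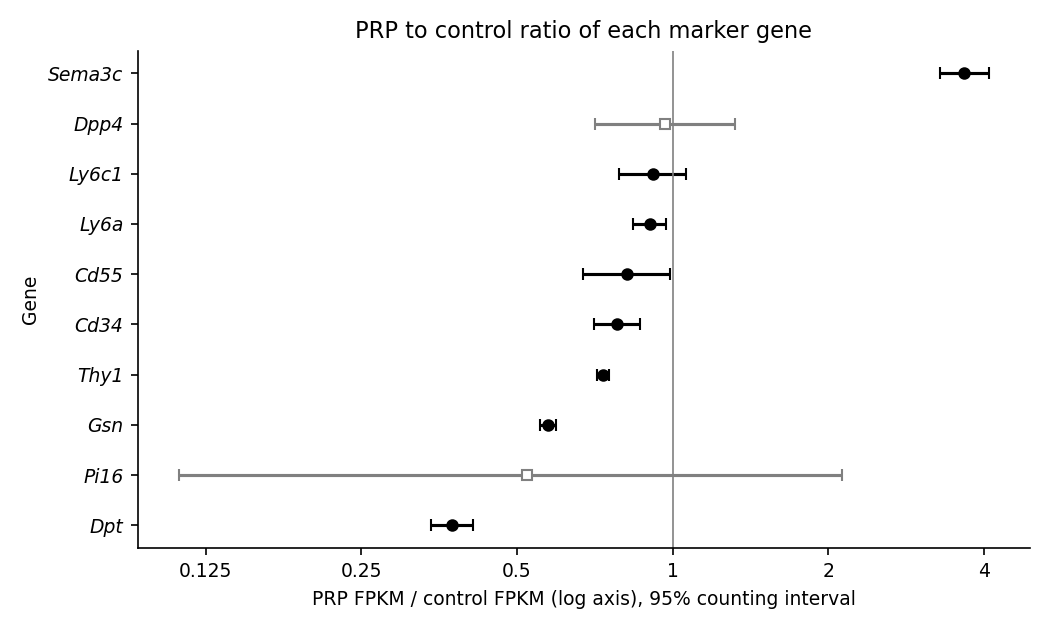
PRP FPKM divided by control FPKM for each marker gene, on a log axis, with exact 95% counting intervals. Filled circles are the 8 tested genes and open squares are Dpp4 and Pi16. Dpt lies lowest at 0.374 and Sema3c highest at 3.67, and the intervals of Dpp4, Ly6c1 and Pi16 cross 1.

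The broad surface markers were lower in the PRP library by modest amounts. Ly6a encodes Sca-1, a small GPI-anchored protein of the Ly6 family and the usual sorting marker of mouse FAPs. Ly6a (ENSMUSG00000075602, chromosome 15, 74994877 to 74998031, minus strand, mm10) had 59.9 against 66.4 FPKM, with a ratio of 0.902 (interval 0.837 to 0.972). Its log2 fold change of -0.15 lay well inside the range from -0.74 to 0.89 that held 95% of all tested genes. Cd34 encodes a sialomucin of progenitor and endothelial cells. Cd34 (ENSMUSG00000016494, chromosome 1, 194938819 to 194961279, plus strand) had 4.76 against 6.10 FPKM, with a ratio of 0.780 (0.703 to 0.866). Thy1 encodes the GPI-anchored glycoprotein CD90, a general marker of mesenchymal cells that T cells and neurons also carry. Thy1 (ENSMUSG00000032011, chromosome 9, 44043384 to 44048579, plus strand) had 155.6 against 212.1 FPKM, with a ratio of 0.733 (0.713 to 0.754) from 18692 and 21687 reads. With the highest read numbers of the set, Thy1 also had the narrowest interval. Sorted by log2 fold change from lowest to highest, Thy1 stood at percentile 8.35 of all tested genes, Cd34 at 15.3 and Ly6a at 29.98.

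Among the tested genes that were lower, the secreted and matrix-associated genes had the largest log2 fold changes. Dpt encodes dermatopontin, a matrix protein that binds decorin and helps to assemble collagen fibrils. Dpt (ENSMUSG00000026574, chromosome 1, 164796644 to 164824266, plus strand) had 18.8 against 50.2 FPKM. Its ratio was 0.374 (0.341 to 0.410), from 1298 and 2953 reads, and the log2 fold change of -1.37 stood at percentile 0.269 of all tested genes. It was the lowest ratio of the 10 genes. Gsn encodes gelsolin, which severs and caps actin filaments and has a form secreted into plasma. Gsn (ENSMUSG00000026879, chromosome 2, 35256380 to 35307892, plus strand) had 79.6 against 138.6 FPKM, with a ratio of 0.574 (0.554 to 0.595) and a log2 fold change of -0.79 at percentile 2.13. Summed, both genes had 98.3 against 188.8 FPKM (ratio 0.521), while the 3 surface markers had 220.2 against 284.6 FPKM (ratio 0.774).

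The progenitor subset genes did not move together. Sema3c encodes a secreted class 3 semaphorin that signals through neuropilins and plexins. Sema3c (ENSMUSG00000028780, chromosome 5, 17574281 to 17730268, plus strand) had 12.2 against 3.32 FPKM. It was 3.67-fold higher (interval 3.29 to 4.10), from 3494 and 810 reads, and its log2 fold change of 1.61 stood at percentile 99.5 of all tested genes. No other gene of the 10 had a ratio above 1. Cd55 encodes decay-accelerating factor, a GPI-anchored protein that protects cells from complement. Cd55 (ENSMUSG00000026399, chromosome 1, 130439027 to 130462744, minus strand) had 2.18 against 2.68 FPKM, with a ratio of 0.815 (0.672 to 0.988) whose interval ends just under 1. Ly6c1 encodes Ly-6C1, a surface protein also found on endothelial cells. Ly6c1 (ENSMUSG00000079018, chromosome 15, 75044018 to 75048830, minus strand) had 10.98 against 12.0 FPKM, with a ratio of 0.915 (0.788 to 1.06), a difference not detectable at this depth.

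The remaining members of the subset were scarce. Dpp4 encodes the membrane-bound peptidase CD26, which trims chemokines and incretin hormones. Dpp4 (ENSMUSG00000035000, chromosome 2, 62330073 to 62412231, minus strand) had 0.722 against 0.746 FPKM, with a ratio of 0.967 (0.709 to 1.32) from 183 and 161 reads. Pi16 encodes a secreted or membrane-anchored protein of the CAP superfamily, and it gives the PI16-positive fibroblasts their name. Pi16 (ENSMUSG00000024011, chromosome 17, 29317680 to 29330593, plus strand) had 0.0313 against 0.0598 FPKM, from 8 and 13 reads, and its interval of 0.111 to 2.13 leaves the direction undecided. In the control library the level of Dpp4 per length was 12.5 times that of Pi16. The 5 subset genes summed to 26.1 against 18.8 FPKM, but without Sema3c the other 4 summed to 13.9 against 15.5 FPKM.

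**Figure D3:**
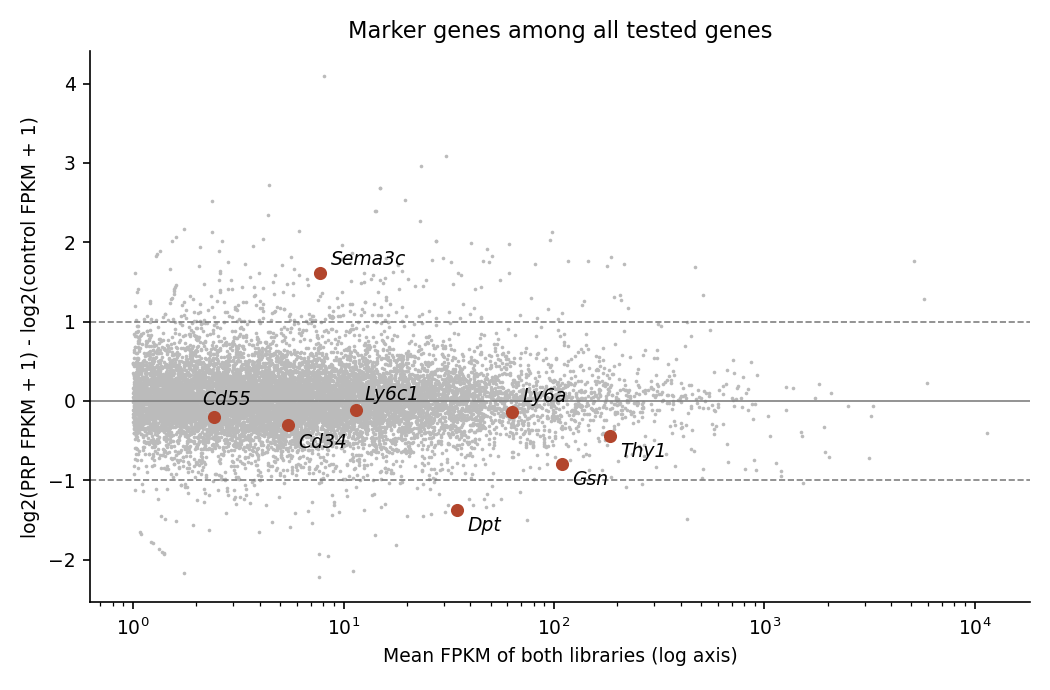
Log2 fold change against mean FPKM for all 13401 tested genes (grey) and the 8 tested marker genes (red). The dashed lines mark 2-fold. Sema3c (1.61) lies above the upper line and Dpt (-1.37) below the lower line, and the other 6 lie between them, all below 0.

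Some of the marker genes have close relatives with which reads can be shared. All 50-base stretches of the annotated transcripts of each gene were looked up in the transcripts of every other gene. Of Ly6c1, 32.8% of the stretches also occurred elsewhere, mainly in Ly6c2 (21.5% of its stretches) and in Ly6a (11.1%). The share was 18.97% for Ly6a, mainly with Ly6c1, and 7.998% for Cd55, all with Cd55b. For the other 7 genes it was under 1%, and it was 0 for Thy1, Dpt, Gsn, Dpp4 and Sema3c. How reads with several matching places were counted is not given in the sources used here, so the values of Ly6a and Ly6c1 are less certain than the others. Ly6c2 had 4 and 8 reads and Cd55b had 0 and 1, so both were nearly silent, whereas Ly6a and Ly6c1, which share stretches with each other, were both well above 1 FPKM. No marker gene shared exon bases with another gene on its own strand, and the antisense overlaps of Cd34, Cd55, Dpp4 and Pi16 covered between 2.03% and 3.67% of their exon length. Whether strand was used in counting is not given in the sources used here, so reads in those overlaps could come from either gene.

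To place the 10 genes among other markers of the same cells, 21 further FAP and fibroblast markers were listed. Of these, 17 were tested, 14 lower (beside 49.1% of all tested genes) and 3 higher. Their median log2 fold change was -0.25 beside 0.01 over all tested genes. The largest differences were those of Cd248 (29.2 against 67.2 FPKM), which encodes endosialin, a surface protein of stromal cells, and of the collagen genes Col3a1 (26.9 against 53.7) and Col1a1 (118.6 against 218.7). Their ratios were 0.435 (0.408 to 0.462), 0.501 (0.484 to 0.518) and 0.542 (0.531 to 0.553). Pdgfra, whose product is the sorting antigen of FAPs beside Sca-1, had 19.8 against 27.95 FPKM, with a ratio of 0.710 (0.680 to 0.740). Col1a1, Col3a1 and Cd248 were thus in the same range of ratios as Dpt and Gsn, and Pdgfra was near Thy1. Among other markers of the list, Fbn1 (ratio 0.571) and Osr1 (ratio 0.610) were also lower, and Vim (ratio 0.973) and Itgb1 (ratio 0.966) were nearly level. Of the 3 higher genes, Cd44 had the largest difference, at 33.2 against 19.1 FPKM (ratio 1.74, interval 1.65 to 1.83).

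Other genes of the progenitor subset were mixed in direction, as were the 5 members. Of 20 listed, 12 were tested, 8 higher (beside 50.9% of all tested genes) and 4 lower, with a median log2 fold change of 0.29. This median was -0.08 at a minimum mean of 5 FPKM and 0.03 with no filter, so it takes its sign from the filter. Procr, which encodes the endothelial protein C receptor, had 50.6 against 14.4 FPKM, a ratio of 3.52 (3.19 to 3.88) that was close to that of Sema3c. Fbn1, the gene of the microfibril protein fibrillin-1, had 67.4 against 118.1 FPKM, with a ratio of 0.571 (0.559 to 0.582), and 20.1% of its exon bases overlap another annotated gene. Cd248 and Fbn1 stand in both lists and were 2 of the 3 genes with the largest differences in this one. Thus neither direction was common to the subset.

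Genes of committed preadipocytes and of the CD142-positive regulatory subset were listed next. Of 11 tested preadipocyte genes 7 were lower (beside 49.1% of all tested genes) and 4 higher (median -0.30). The adhesion molecule gene Icam1, by which committed preadipocytes are often sorted, had 15.7 against 6.80 FPKM (ratio 2.31, interval 2.08 to 2.56). Pparg (8.69 against 6.55 FPKM, ratio 1.33, interval 1.15 to 1.53) and Fabp4 (ratio 1.21, interval 1.15 to 1.27) were also higher. Hsd11b1, whose enzyme activates glucocorticoids, had 18.04 against 30.4 FPKM (ratio 0.593), and the adhesion molecule gene Vcam1 5.21 against 7.15 FPKM (ratio 0.728). Lpl had 67.4 against 83.3 FPKM (ratio 0.810, interval 0.791 to 0.828), and Col4a1 (ratio 0.809), Pdgfrb (0.773) and Smoc2 (0.789) were lower too. Over the 11 genes the interval lay wholly below 1 for 6 and wholly above 1 for 3. Of the tested genes with whole reads these shares were 26.1% and 26.2%. All 6 tested genes of the CD142 list were lower in value (median -0.61), beside 49.1% of all tested genes. For 5 of the 6 the counting interval lay wholly below 1, beside 26.1% of the tested genes with whole reads. Mgp had 140.3 against 299.7 FPKM (ratio 0.468), Meox2 7.30 against 13.4 FPKM (ratio 0.546) and Fmo2 9.82 against 15.98 FPKM (ratio 0.615). Mgp encodes an inhibitor of calcification, Meox2 a homeobox factor and Fmo2 a flavin monooxygenase. F3, which encodes CD142 itself, was nearly level, with an interval of its ratio from 0.936 to 1.01.

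**Figure D4:**
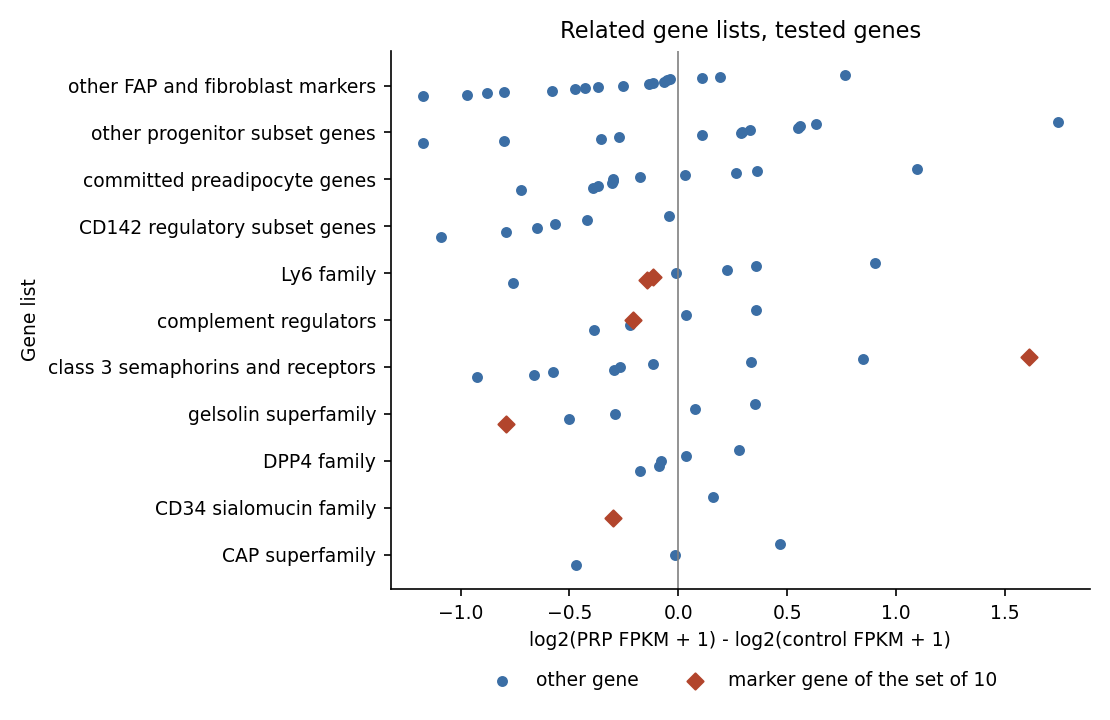
Log2 fold change of the tested genes of 11 related lists, 1 row per list, with marker genes of the set of 10 as red diamonds and other genes as blue points. Genes of the CD142 list all lie left of 0, and Sema3c and Procr are the points farthest to the right.

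The families of the members were compared to see whether relatives behaved alike. Among class 3 semaphorins and their receptors, 8 genes beside Sema3c were tested. Of these, 6 were lower and 2 higher, beside 49.1% and 50.9% of all tested genes. Sema3e was the other ligand with a large difference, at 2.41 against 0.896 FPKM (ratio 2.69, interval 2.22 to 3.27). The receptor genes Plxna4 (0.389 against 1.63 FPKM, ratio 0.238) and Plxnd1 (2.96 against 5.26 FPKM, ratio 0.563) were lower, and Plxnd1 encodes the main receptor of semaphorin 3E. Plxna4 was under 1 FPKM in the PRP library, and Sema3e was under 1 FPKM in the control library. Both thus passed the filter only through the library where they were higher. Plxna1, the plexin gene with the most FPKM among those tested, was higher instead, at 23.6 against 18.5 FPKM (ratio 1.28, interval 1.22 to 1.34). The neuropilin genes Nrp1 and Nrp2, whose products are co-receptors of Sema3c, had ratios of 0.792 (0.733 to 0.855) and 0.664 (0.644 to 0.684). Of the tested receptor genes, Plxna4, Plxnd1, Nrp1 and Nrp2 were thus lower, and Plxna1 alone was higher.

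In the Ly6 family, of which 26 listed genes were in the tables, 5 genes beside Ly6a and Ly6c1 were tested. Of these 5, 2 were lower and 3 higher, beside 49.1% and 50.9% of all tested genes. Ly6e, a neighbour of Ly6a, had 5.34 against 5.38 FPKM. Plaur, the urokinase receptor gene, had 14.4 against 7.23 FPKM (ratio 1.99, interval 1.75 to 2.28), and Lynx1, which encodes a modulator of nicotinic receptors, 3.82 against 7.15 FPKM (ratio 0.534). Cd59a, whose product blocks the last step of complement as Cd55 blocks an early one, had 9.68 against 7.34 FPKM (ratio 1.32, interval 1.11 to 1.56). Members of the family therefore lay on both sides of Ly6a and Ly6c1.

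Of the gelsolin superfamily, 4 genes beside Gsn were tested, and none was past 2-fold. Of these 4, 2 were lower and 2 higher, beside 49.1% and 50.9% of all tested genes. Among the 4 and Gsn, Gsn had the lowest ratio. Svil (supervillin) had 11.1 against 16.2 FPKM (ratio 0.687), Flii 36.9 against 45.3 FPKM (ratio 0.813) and Avil (advillin) 2.13 against 1.46 FPKM (ratio 1.47).

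The label of the cells was checked against defining markers. Of 8 FAP markers, 7 had at least 1 FPKM in both libraries, and Lum, the gene of the matrix proteoglycan lumican, had 0.0815 and 0.0718 FPKM and was all but absent. The 8 summed to 298.0 against 466.4 FPKM. Ly6a, Cd34 and Dpt are among these 8.

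Because other cells make several of the marker proteins, markers of those cells are given beside them. The 10 endothelial markers summed to 6.28 against 3.84 FPKM. Of them 2 reached 1 FPKM, both VEGF receptor genes, Kdr with 4.23 against 1.499 FPKM and Flt1 with 1.25 against 1.83 FPKM. Without Kdr the other 9 summed to 2.05 against 2.34 FPKM, most of it from Flt1 (interval of its ratio 0.592 to 0.792). Cldn5 was listed at 0 in both. Pecam1, which encodes CD31, had 47 and 10 reads (0.188 against 0.0470 FPKM). The 10 immune markers summed to 10.6 and 10.9 FPKM, with Lyz2 lower (4.91 against 7.57 FPKM) and the macrophage gene Cd68 higher (4.56 against 2.31 FPKM, ratio 1.98, interval 1.41 to 2.82). Without Lyz2 the other 9 summed to 5.67 against 3.37 FPKM, and Ptprc, the gene of CD45, had 8 and 12 reads. Mesothelial markers summed to 19.9 and 11.7 FPKM, nearly all from the keratin gene Krt19 (19.7 against 11.3), the other 5 having 0.270 against 0.377 FPKM, while Lrrn4 was listed at 0 in both. Pericyte and smooth muscle markers summed to 22.6 and 16.5 FPKM, with Myh11 the highest (16.7 against 9.86), and the other 7 summed to 5.92 against 6.66 FPKM. Muscle stem cell markers summed to 3.77 and 4.81 FPKM, of which Des gave most (2.91 against 3.39), and Pax7 and Myog were listed at 0 in both. Schwann cell markers summed to 1.23 and 2.99 FPKM, with S100b the highest (0.739 against 2.29). Adipocyte markers summed to 51.4 and 44.0 FPKM, of which Fabp4 gave most (40.7 against 33.6 FPKM), and the other 7 summed to 10.8 against 10.4 FPKM. Of the 4 tested adipocyte markers, Fabp4 alone had an interval that left out 1. The part of these cells in the differences of the marker genes was not tested.

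**Figure D5:**
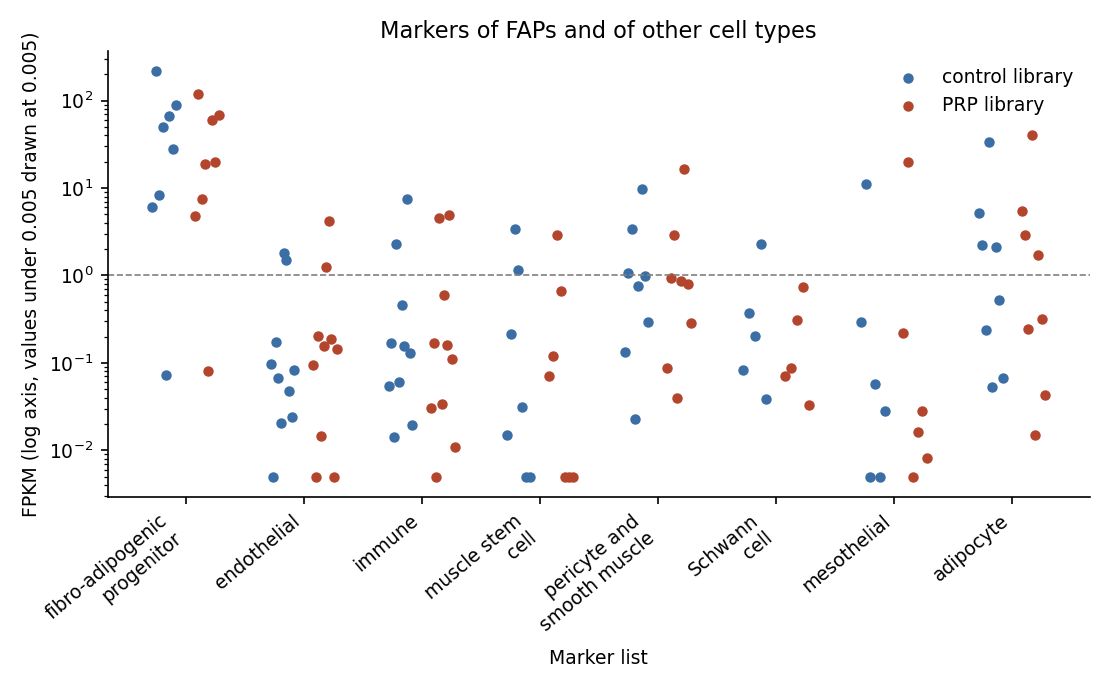
FPKM of markers of FAPs and of 7 other cell types on a log axis, with the control library in blue and the PRP library in red, 1 point per gene. Values under 0.005 FPKM are drawn at 0.005, and the dashed line marks 1 FPKM. Most FAP markers lie above 1 FPKM, and most endothelial, immune and muscle stem cell markers lie below it.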

How the data were processed

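Per the labels and the study's methods, stranded mRNA libraries were sequenced, and the authors trimmed the reads (fastp 0.23.4), aligned them to mm10 with STAR 2.5.3a and used featureCounts for counting. FPKM is the unit of the deposited values, and how the authors derived them from the counts is not given in the sources used here. Exon lengths and coordinates were taken from GENCODE M21 (GRCm38), which held 41464 of the 44291 gene identifiers (93.6%). Of 28152 genes above 0 with a length, 26398 (93.8%) gave whole reads in both libraries within 0.001 reads. Even numbers made up 79.3% (PRP) and 80.3% (control) of the genes with up to 8 reads, so intervals used reads divided by 2, as for pairs.

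Log2 fold changes used a pseudocount of 1 and genes whose FPKM averaged at least 1. Counts of genes whose interval excludes 1 use genes with whole reads. Read recovery, intervals and directions were tested on data simulated with counting error only. That test could not cover replicate error or PCR duplicates. All 10 members were named, with Ly6c2, Ly6e, Cd55b, Pdgfra, Pecam1 and Ptprc, the 3 genes with the largest change in each list and the most abundant marker of each other cell type. Lum, F3, Nrp1, Nrp2, Plxna1, Flt1, Cd68, Cd44, Vim, Itgb1, Pparg and the markers listed at 0 were named after their values were seen. The same holds for Vwf, Esam, Lpl, Col4a1, Pdgfrb, Smoc2 and Osr1. The members and lists were chosen with earlier results of these data known. Python 3.11.15, NumPy 2.4.6, pandas 2.3.3, SciPy 1.17.1 and matplotlib 3.10.9 were used.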

Additional observations from a re-analysis of the deposited data

How the results depend on the processing

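No paired analysis was possible because there was a single library on each side, and for the same reason no replicate could be left out. The 8 tested marker genes had a median log2 fold change of -0.26. It was -0.32 when 0.1 was added to the FPKM before the log, -0.16 when 5 was added, -0.27 after rescaling to a common FPKM sum, and -0.28 after rescaling without mitochondrial genes and the 50 most abundant genes. With no filter it was -0.18 over all 10 genes, and with a minimum of 5 FPKM it was -0.30 over 7 genes. Every marker gene kept its direction under each of these pseudocounts and rescalings, with Dpt between -1.41 and -1.22 and Sema3c between 1.05 and 1.84. At a threshold of 1.5-fold 2 marker genes were lower, and at 4-fold 0 were lower and 0 higher. Over all genes, 379 were past 2-fold, with 739 when 0.1 was added, 113 when 5 was added, 210 at a minimum of 5 FPKM, 1436 at 1.5-fold and 26 at 4-fold. The interval excluded no change for 7 marker genes, and also for 7 on reads in place of pairs and after either rescaling. For these intervals the rescaling without top genes was chosen after seeing the data. Depth limits Pi16 most, with 8 and 13 reads.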

Other observations

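Tested relatives of Cd55, Dpp4 and Pi16 lay on both sides of no difference. Values are given with the PRP library first. Among complement regulators, 4 genes beside Cd55 were tested, 2 lower and 2 higher (beside 49.1% and 50.9% of all tested genes). Serping1, the gene of the C1 inhibitor, had 15.5 against 18.2 FPKM (ratio 0.850, interval 0.765 to 0.943), and Clu (clusterin) 1.001 against 1.62 FPKM (ratio 0.618, interval 0.447 to 0.852).

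Relatives of Dpp4 numbered 5 tested genes, 3 lower and 2 higher (beside 49.1% and 50.9% of all tested genes), and none was past 1.5-fold. Dpp7, a lysosomal peptidase gene, had 11.5 against 9.28 FPKM (ratio 1.24), Dpp9 3.65 against 4.25 (ratio 0.858) and Prep 3.19 against 3.45 (ratio 0.924, interval 0.829 to 1.03). Of the CAP superfamily of Pi16, 3 genes were tested. Glipr2 had 27.7 against 27.99 FPKM, Pi15 1.65 against 2.67 (ratio 0.616) and Glipr1 3.04 against 1.92 (ratio 1.58), with 22.8% of the exon bases of Glipr1 overlapping another annotated gene. Of the CD34 family 1 gene beside Cd34 was tested, Podxl2, which had 1.92 against 1.61 FPKM, with an interval of its ratio from 0.966 to 1.47.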
